A study of Mus musculus with 4 samples.

Results

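The genes described here were those of MHC class I antigen presentation and of the immunoproteasome, 10 genes chosen by name out of the 17561 in the count table: the heavy chains H2-K1 and H2-D1, their light chain B2m, the peptide transporter subunits Tap1 and Tap2, the loading factor Tapbp, the catalytic immunoproteasome subunits Psmb8, Psmb9 and Psmb10, and the class I transactivator Nlrc5. All 10 were found in the table and passed a minimum of 10 CPM (counts scaled to the same total in every group of cells) over all cells. The cells were CD8+ T cells sorted from the BM of C57BL/6 background recipients, WT or CRBN transgenic, 4 weeks after SCT, and single-cell 5' RNA libraries were made from 4 pools of 5 mice. The recipients were female and 8 to 12 weeks old, carried Vk*MYC myeloma given before the transplant, and received genetically matched BM and T cells. The treatments were isotype antibody (cIg) with vehicle, αTIGIT with vehicle, isotype with lenalidomide, and αTIGIT with lenalidomide, antibody being given from the transplant and lenalidomide from day 14 to the harvest at day 28. Which pool held CRBN transgenic mice is not given in the sources used here. The count table numbers its libraries 1 to 4 without naming a treatment, so no library was assigned to a treatment, and the values below are given by library number and by the 8 clusters that the authors named: Tn, Tcm, transitory Teff, GzmB+ Teff, GzmA+ Tex, TIM-3+ Tex, TIGIT+ Teff and cycling cells.

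MHC class I molecules carry peptides of cytosolic proteins to the cell surface, where CD8+ T cells and NK cells read them. The proteasome cuts proteins into peptides, TAP pumps these into the endoplasmic reticulum, and tapasin (the product of Tapbp) holds empty class I molecules to TAP until a peptide is bound. Interferons induce most of these genes, and in cells so induced Psmb8, Psmb9 and Psmb10 take the places of the constitutive catalytic subunits encoded by Psmb5, Psmb6 and Psmb7. T cells themselves express the pathway at high levels, since lymphocytes keep the immunoproteasome without infection and NLRC5 holds up class I transcription in them.

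In the GENCODE annotation of GRCm38, the build the submitters used under the name mm10, 7 of the 10 genes lie on chromosome 17. H2-K1 (chr17:33996017-34000347) and H2-D1 (chr17:35262730-35267499) stand on either side of the class II region, and Tapbp (chr17:33915899-33929292) is close to H2-K1. Psmb9 (chr17:34181987-34187764), Tap1 (chr17:34187553-34197225), Psmb8 (chr17:34197721-34201454) and Tap2 (chr17:34203527-34216321) follow each other without another gene of the group between them. Psmb9 and Tap1 are read in opposite directions from starts that are 225 bases apart in RefSeq. B2m (chr2:122147686-122153083), Nlrc5 (chr8:94434356-94527272) and Psmb10 (chr8:105935735-105938444) are elsewhere. RefSeq promoter windows of 300 bases, 250 before and 50 after a start (GRCm38.p6), were at hand for 8 of the 10 genes, all but Tap2 and Nlrc5. The heavy chain genes and B2m shared a layout in these windows, TGACG followed 20 bases later by ATTGG on the strand of the gene. The TGACG letters are those of the X2 box and ATTGG those of a reversed Y box, the elements through which NLRC5 acts on class I promoters. The 3 stretches of 30 bases are shown because they are the sequence feature common to the surface molecule's own genes, with the searched letters in capitals. They stand at chr17:34000359-34000388, minus strand, at chr17:35262993-35263022, plus strand, and at chr2:122147609-122147638, plus strand.
H2-K1: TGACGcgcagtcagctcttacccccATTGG
H2-D1: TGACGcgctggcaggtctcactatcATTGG
B2m: TGACGacctccggatctgagtccggATTGG
Of the 30 bases, 23 were the same in H2-K1 and H2-D1, 13 in H2-K1 and B2m, and 12 in H2-D1 and B2m, the 10 searched letters included. TGACG followed by ATTGG at a distance of 15 to 30 bases, on either strand, was present in 3 of the 8 member windows and in 189 of all 32851 windows of this length, 0.575%. Among the other class I heavy chains with a window, H2-Q7 and H2-M3 held it too, with 19 and 20 bases between.

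Interferon-response letters stood just upstream. The search took GAAANNGAA and GAANNGAAA, each on both strands and able to overlap, which were present in 8.56% and 7.52% of all windows. Of the 8 member windows, B2m held GAAANNGAA, and H2-K1 and H2-D1 held GAANNGAAA read on the opposite strand. The stretches before the starts of H2-K1 (chr17:34000348-34000547, minus strand) and B2m (chr2:122147487-122147685, plus strand) show this element together with the X2 and Y letters, again in capitals.
H2-K1: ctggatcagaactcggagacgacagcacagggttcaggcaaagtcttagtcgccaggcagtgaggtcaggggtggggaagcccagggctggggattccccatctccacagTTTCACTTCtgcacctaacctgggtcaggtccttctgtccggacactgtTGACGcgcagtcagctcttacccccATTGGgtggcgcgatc
B2m: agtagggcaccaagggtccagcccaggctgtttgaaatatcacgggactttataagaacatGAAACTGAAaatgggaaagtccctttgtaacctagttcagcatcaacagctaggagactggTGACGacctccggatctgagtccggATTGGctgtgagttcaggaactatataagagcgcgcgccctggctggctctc
A match of letters is a description of the window and not a bound site.

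The 4 libraries held 1725 to 4237 cells and 15556967 to 38440687 unique molecular identifiers (UMIs, 1 per captured transcript), with medians of 7115 to 7669 UMIs per cell, and 112 of the 11754 cells carried a barcode sequence that also occurs in another library. The smallest group was TIM-3+ Tex of library 3, with 31 cells, followed by TIGIT+ Teff of library 2, with 50. Levels are CPM from the UMI sums of each cluster, and their intervals are exact 95% Poisson intervals, which cover counting error only. The T cell markers were present in every cluster, with Cd8a between 328 and 1081 CPM, while Cd8b1 was at 217 CPM in Tcm and between 934 and 1327 CPM in the others. Gzmb, the gene behind the name GzmB+ Teff, was highest there over all libraries, at 584 CPM, but TIGIT+ Teff followed at 557 CPM and the library ranges overlapped. Other name genes did not peak in their clusters: Tigit was at 313 CPM in TIGIT+ Teff, below transitory Teff (338 CPM) and TIM-3+ Tex (567 CPM), and Gzma at 684 CPM in GzmA+ Tex, below TIM-3+ Tex (1192 CPM). Havcr2, the gene of TIM-3, was at 76.7 CPM in TIM-3+ Tex and 78.8 CPM in TIGIT+ Teff. GzmB+ Teff also held interferon-response RNA, all 13 genes of at least 10 CPM in a list of 16, which holds Isg15 and Ifit1 and none of the 10 genes, being called higher than in Tn. A gene was called when its CPM differed by 1.5-fold over all libraries and in the same direction in each of the 4. The clusters were formed on the same expression values, so all differences between them are descriptions without a test.

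All 10 genes were lowest in Tn when the libraries were summed, and 38 of the 40 pairs of gene and library had their lowest cluster in Tn. The exceptions were B2m in library 1, lowest in cycling cells, and Psmb10 in library 4, lowest in TIGIT+ Teff. This order holds for CPM, in which the median log2 ratio to Tn of all genes was also above 0, from 0.10 in GzmB+ Teff to 0.58 in TIGIT+ Teff. With mitochondrial, ribosomal protein, TCR and immunoglobulin genes left out of the total, as described below, Tn was no longer lowest for H2-K1, B2m, Psmb8 and Psmb10. The share of all genes lowest in Tn is not given here. With the libraries summed, the highest cluster was GzmB+ Teff for B2m, Tapbp, Psmb8, Psmb9 and Psmb10. It was TIGIT+ Teff for H2-K1, H2-D1, Tap1, Tap2 and Nlrc5. This held in each of the 4 libraries for Tapbp, Psmb8, Psmb10 and Nlrc5. It held in 3 libraries for B2m, H2-K1 and Tap2 and in 2 for Psmb9, H2-D1 and Tap1. The span from the lowest to the highest cluster ran from 1.35-fold for B2m and 1.63-fold for Psmb8 to 3.05-fold for Tap1 and 4.49-fold for Nlrc5, so the surface molecule's own genes varied less than the transporter and the transactivator.

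**Figure D1:**
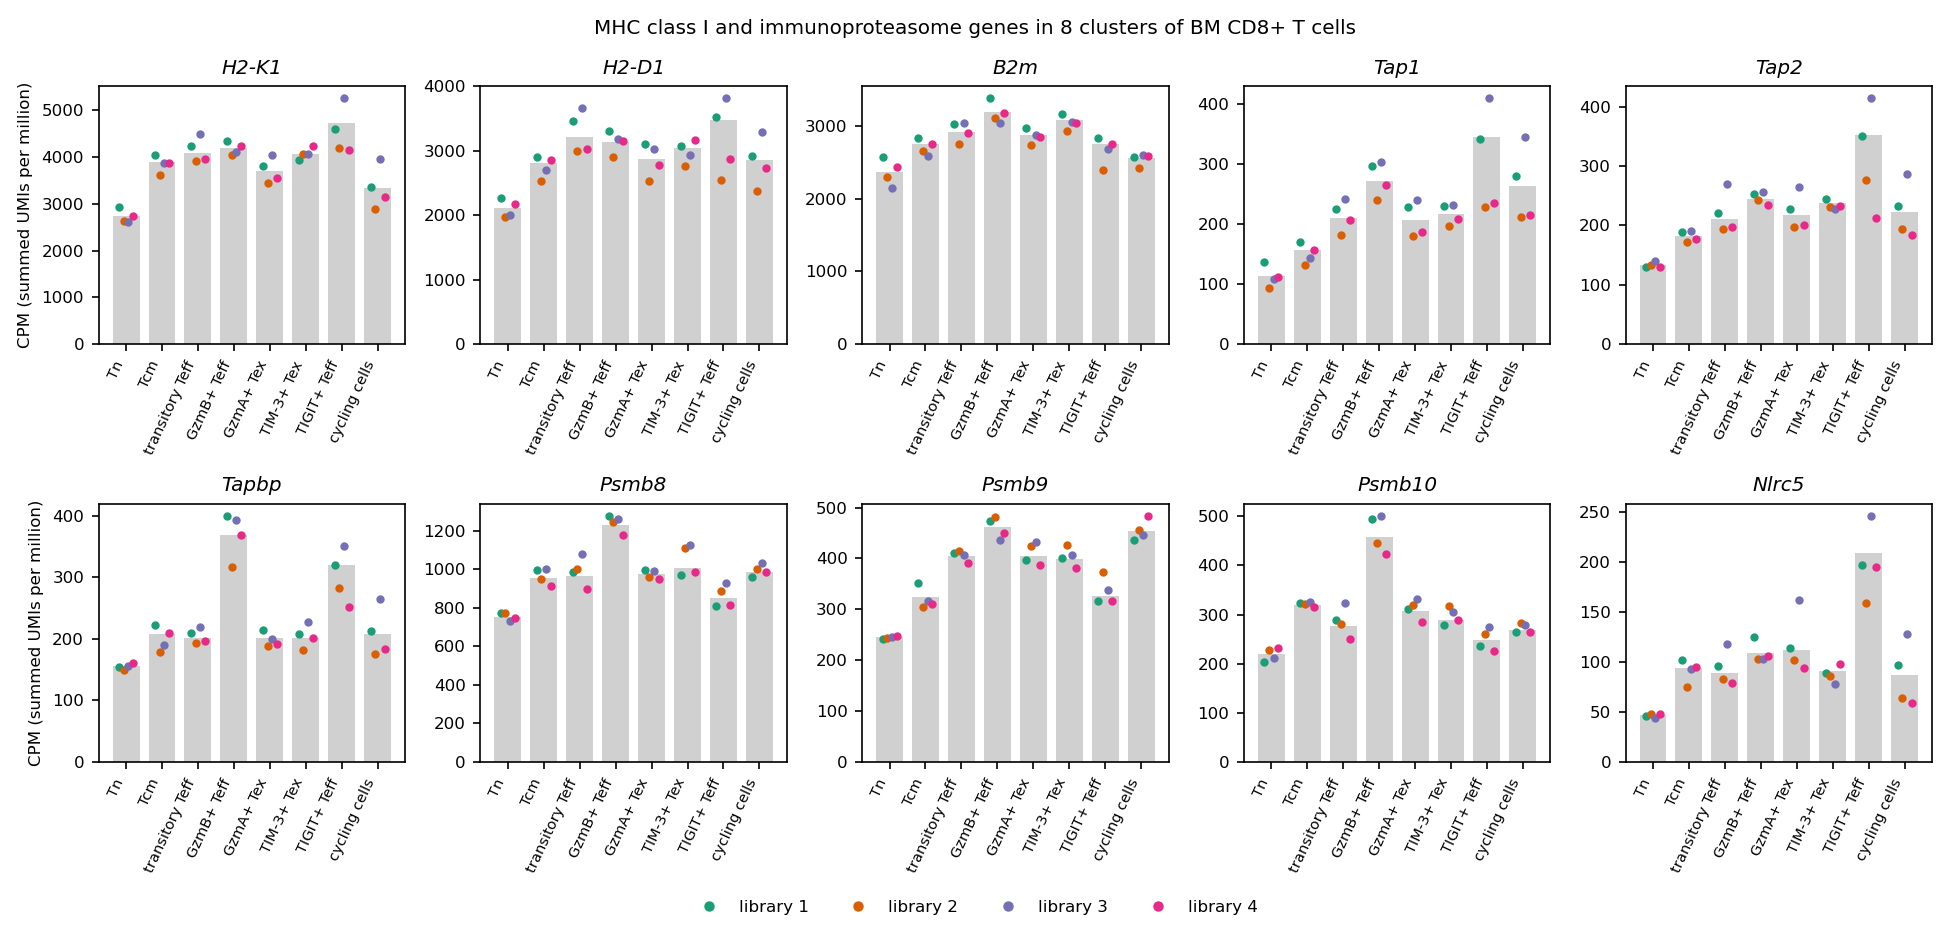
CPM of the 10 genes (y axis, from 0) in the 8 clusters (x axis). Bars are all libraries summed and points the single libraries; Tn has the lowest bar in every panel, Tapbp, Psmb8 and Psmb10 peak in GzmB+ Teff in each library, and Nlrc5 peaks in TIGIT+ Teff in each library.

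The heavy chains and B2m were near saturation as a share of cells. With each cell thinned to 2500 UMIs, at least 1 UMI of H2-K1 was found in at least 99.2% of the cells of each cluster, of H2-D1 in at least 99.6%, and of B2m in at least 98.7%, so only their levels carried information. H2-K1, the classical heavy chain of the K locus, was at 2929, 2631, 2615 and 2743 CPM in Tn of libraries 1 to 4 and at 4352, 4038, 4115 and 4241 CPM in GzmB+ Teff. The groups did not overlap, and the summed ratio was 1.54-fold (95% interval 1.51 to 1.57). H2-D1, the other classical heavy chain, was 1.49-fold higher there (1.46 to 1.52), just short of the 1.5-fold limit. B2m, which pairs with every class I heavy chain, was 1.35-fold higher (1.32 to 1.37). The H2-K1 level in TIM-3+ Tex, 4064 CPM, could not be told from that in transitory Teff, 4082 CPM, within counting error. Exact stretches of 90 bases shared with another gene, mostly other heavy chains, made up 4.25% of the H2-D1 and 1.54% of the H2-K1 transcript sequence and 0.338% of Tapbp, and none of the other 7 genes.

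The peptide transport and loading genes covered a wider range. Tap1, a subunit of the transporter, was at 136, 93.9, 109 and 111 CPM in Tn of libraries 1 to 4 and at 297, 239.8, 303 and 264 CPM in GzmB+ Teff. That was 2.42-fold over all libraries (2.25 to 2.60), without overlap. Its share of cells with a UMI at 2500 UMIs per cell went from 24.9% of Tn to 52.5% of GzmB+ Teff and 59.2% of TIGIT+ Teff. Tap2, the partner subunit, was 1.84-fold higher in GzmB+ Teff than in Tn (1.71 to 1.97). Tapbp was at 154, 149, 156 and 160.4 CPM in Tn and at 399, 317, 392 and 369 CPM in GzmB+ Teff, 2.37-fold (2.23 to 2.53). Between Tn and the 2 highest clusters, GzmB+ Teff at 368 CPM and TIGIT+ Teff at 320.2 CPM, the Tapbp level was flat. It was at 201 CPM in transitory Teff, GzmA+ Tex and TIM-3+ Tex, 207 CPM in Tcm and 208 CPM in cycling cells, and none of these differed from its neighbour in the order within counting error.

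The immunoproteasome subunits peaked together in GzmB+ Teff. Psmb8, the chymotrypsin-like subunit (LMP7), was at 773, 772, 729.7 and 747 CPM in Tn of libraries 1 to 4 and at 1276, 1245, 1263 and 1177 CPM in GzmB+ Teff. The ratio was 1.63-fold (1.58 to 1.68), and no other cluster reached the lowest GzmB+ Teff value in any library. Psmb10, the trypsin-like subunit (MECL-1), was at 204, 228, 211 and 231 CPM in Tn and at 495, 446, 500.2 and 424 CPM in GzmB+ Teff, 2.09-fold (1.98 to 2.21). Its next highest cluster was Tcm, at 319.6 CPM. Psmb9 (LMP2) was 1.88-fold higher in GzmB+ Teff (1.79 to 1.98) but its 461 CPM could not be told from the 454 CPM of cycling cells, and in libraries 3 and 4 the cycling cells were the highest cluster.

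Nlrc5, the transactivator that binds class I promoters through the RFX and NF-Y proteins, had the widest spread between clusters of the 10 genes. It was at 45.7, 47.5, 44.3 and 48.2 CPM in Tn of libraries 1 to 4, at 125, 103, 103 and 106 CPM in GzmB+ Teff and at 197, 159.6, 246 and 195 CPM in TIGIT+ Teff. The 3 sets did not overlap. A UMI of Nlrc5 was found in 11.3% of Tn and 42.2% of TIGIT+ Teff at 2500 UMIs per cell.

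Counted over the group, 8 of the 10 genes were called higher in GzmB+ Teff than in Tn, all but H2-D1 and B2m, where 10.7% of the 7604 genes with at least 10 CPM were called higher. The median log2 ratio of the 10 genes was 0.89, against 0.10 for all genes tested. H2-D1 joined the called genes when library 1 or library 4 was left out. In transitory Teff, 5 genes were called higher than in Tn (H2-D1, Tap1, Tap2, Psmb9 and Nlrc5; 15.2% of all genes), or 4 without library 3, where H2-D1 was lost, and 6 without library 1 or 4, where H2-K1 was gained. In GzmA+ Tex (20.1% of all genes) and in TIM-3+ Tex (20.9%), the same 4 genes were called, Tap1, Tap2, Psmb9 and Nlrc5, with H2-K1 added in TIM-3+ Tex without library 1. In cycling cells (33.6%) the called genes were again Tap1, Tap2, Psmb9 and Nlrc5. In Tcm, 1 gene was called, Nlrc5, with 8.81% of all genes, and Psmb10 was added without library 4. In TIGIT+ Teff, 6 genes were called, but so were 45.0% of all genes, and the median log2 ratio of the group, 0.76, stood beside a median of 0.58 for all genes.

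**Figure D2:**
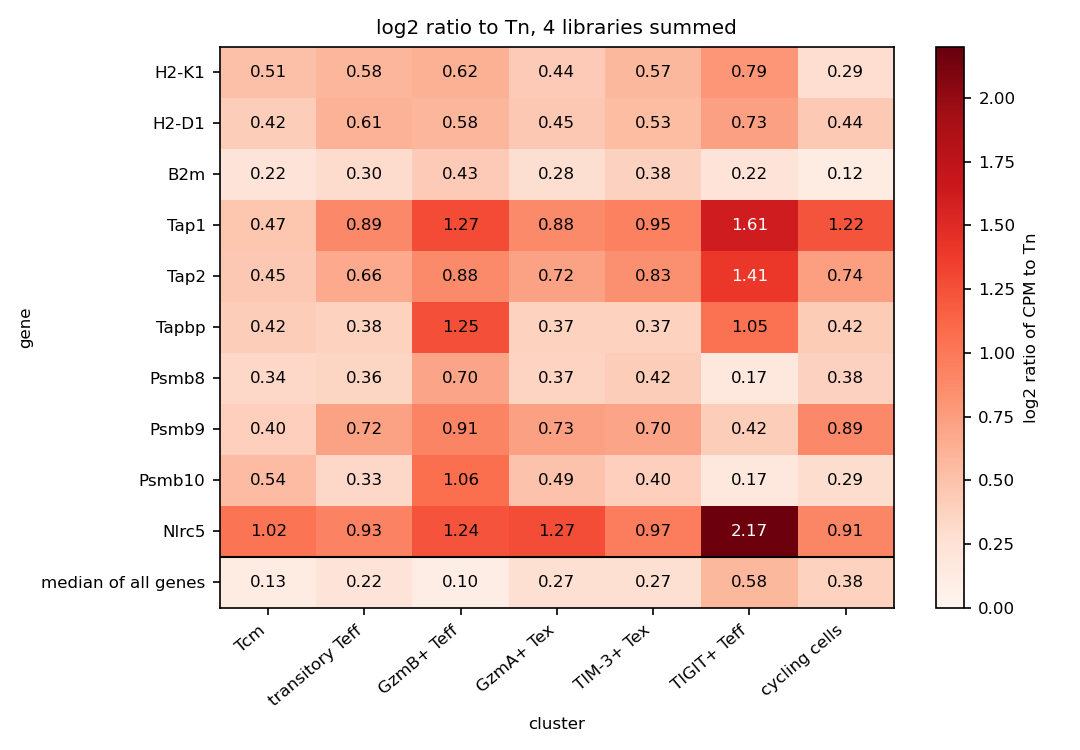
log2 ratio of CPM to Tn (colour and printed value) for the 10 genes (rows) in the 7 other clusters (columns), libraries summed. The last row is the median of the 7604 genes tested, which is 0.10 in GzmB+ Teff and 0.58 in TIGIT+ Teff.

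The totals behind CPM differed in make-up. Mitochondrial, ribosomal protein, TCR and immunoglobulin genes took 42.5% of the UMIs in Tn and 23.4% in TIGIT+ Teff, and leaving them out of the total moved every log2 ratio to Tn down, by 0.20 in GzmB+ Teff and by 0.41 in TIGIT+ Teff and in cycling cells. On that scale 6 genes were called in GzmB+ Teff (Tap1, Tap2, Tapbp, Psmb9, Psmb10 and Nlrc5), and all 10 still had positive ratios to Tn there. The number called was 4 in TIGIT+ Teff (Tap1, Tap2, Tapbp and Nlrc5), 2 in transitory Teff, GzmA+ Tex and TIM-3+ Tex (Tap1 and Nlrc5) and 1 in cycling cells (Tap1). Over all genes, the shares called higher and lower than Tn went from 45.0% and 4.34% to 26.7% and 12.3% in TIGIT+ Teff, from 33.6% and 6.21% to 16.2% and 16.0% in cycling cells, and from 10.7% and 2.13% to 7.84% and 6.94% in GzmB+ Teff. They went from 15.2% and 3.38% to 7.99% and 9.43% in transitory Teff, from 20.1% and 2.96% to 11.1% and 8.28% in GzmA+ Tex, from 20.9% and 6.14% to 9.90% and 13.4% in TIM-3+ Tex, and from 8.81% and 1.87% to 6.12% and 3.53% in Tcm. In TIGIT+ Teff, B2m, Psmb8 and Psmb10 then had a lower level than Tn, and in cycling cells H2-K1, B2m, Psmb8 and Psmb10 did. The direction of those genes between Tn and these 2 clusters therefore depended on the total.

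The rest of the pathway was read from lists. Between GzmB+ Teff and Tn, 5 of 7 non-classical and class I-like heavy chains of at least 10 CPM were called higher, led by H2-T23, the mouse counterpart of HLA-E, at 2.40-fold, H2-T22 at 2.29-fold and H2-M3 at 1.81-fold, with H2-Q7 and Cd1d1 lowest at 1.39- and 1.14-fold. Of 11 peptide loading and trimming genes, 2 were called, Tapbpl, a tapasin-related peptide editor, at 1.94-fold and the loading chaperone partner Pdia3 at 1.57-fold. Ide followed at 1.47-fold, and Canx, Lap3 and Npepps were at 1.08-, 0.959- and 0.840-fold. None of the 5 proteasome activator and assembly genes was called, although the interferon-inducible activator subunits Psme1 and Psme2 were at 1.47- and 1.48-fold, beside 1.05-fold for Psme3. None of the 3 constitutive catalytic subunits was called, nor any of 11 other 20S subunits or of 18 subunits of the 19S cap, with medians on the log2 scale of 0.23, 0.28 and 0.17. Among 22 regulators of the class I genes, 10 were called, with Irf7, Stat2 and Irf8 at 8.58-, 5.67- and 5.29-fold, while Rfxank and Nfya, subunits of the RFX and NF-Y complexes, were at 0.842- and 0.886-fold and the receptor chain Ifngr1 at 0.890-fold. All 11 interferon-gamma-inducible GTPases were called, with Gbp2 at 5.20-fold and Gbp8, the lowest of them, at 3.29-fold. The median log2 ratio was 4.10 for the interferon list, 2.09 for the GTPases and 0.69 for the other heavy chains, beside 0.89 for the 10 genes. Macrophage and class II markers summed to 23.3 and 26.7 CPM in GzmB+ Teff and to 5.05 and 3.58 CPM in Tn. In the 606 GzmB+ Teff cells with under 3 UMIs of macrophage, class II or plasma cell markers, Tapbp was at 378 CPM and Psmb10 at 465 CPM, beside 368 and 458 CPM in the whole cluster.

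The catalytic subunits were compared at the RNA level only, since assembled proteasomes were not measured. The UMIs of Psmb8, Psmb9 and Psmb10 were taken per UMI of Psmb5, Psmb6 and Psmb7, a ratio in which the total of a library cancels. It was highest in GzmB+ Teff, 4.56 (4.39 to 4.74), and lowest in cycling cells, 2.52 (2.48 to 2.56). Tcm and TIGIT+ Teff followed GzmB+ Teff, with 3.78 and 3.74, and GzmA+ Tex (3.29), transitory Teff (3.28), TIM-3+ Tex (3.15) and Tn (2.98, 2.88 to 3.08) lay closer together. GzmB+ Teff kept the first place and cycling cells the last in all 4 libraries, in library 3 with TIM-3+ Tex at the same 3.03. In GzmB+ Teff the ratio was 4.62, 4.74, 5.18 and 4.22 in libraries 1 to 4, beside 2.81, 3.03, 3.28 and 2.87 in Tn, a difference of 0.62 on the log2 scale (0.54 to 0.69). The subunits did not move alike. Psmb10 per Psmb7 went from 4.03 in Tn to 6.58 in GzmB+ Teff and was also high in Tcm, at 5.65, but below Tn in transitory Teff, at 3.46. Psmb9 per Psmb6 ran in another order, with 1.49 in Tn, 1.75 in Tcm and 2.01 in transitory Teff.

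**Figure D3:**
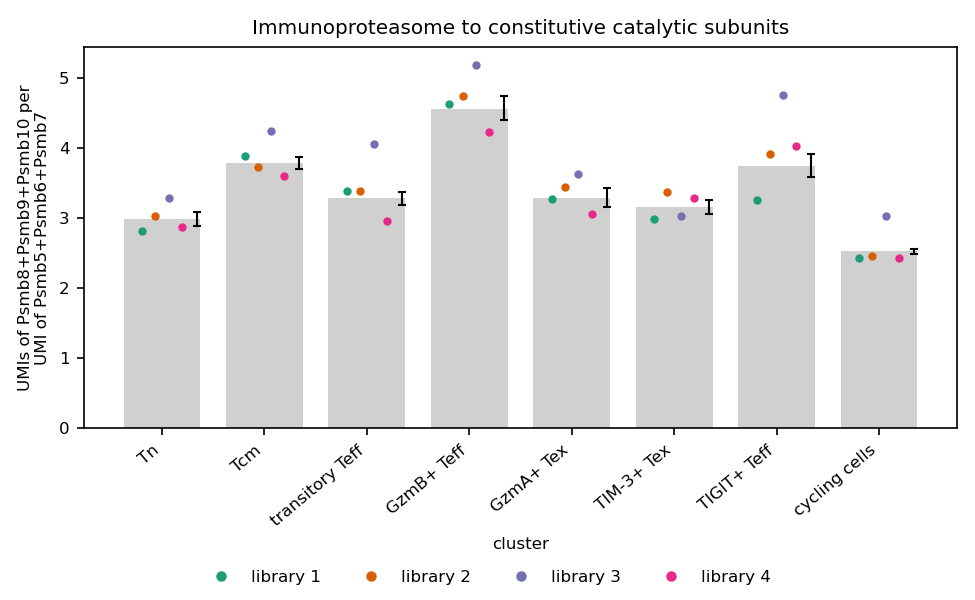
UMIs of the immunoproteasome subunits per UMI of the constitutive catalytic subunits (y axis, from 0) in the 8 clusters (x axis). Bars are all libraries summed with a 95% counting interval, points are the single libraries; GzmB+ Teff is the highest bar, at 4.56, and cycling cells the lowest, at 2.52.

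In cycling cells most of the class I genes had lower levels, and the constitutive subunits higher ones, than in the Teff and Tex clusters summed. Against the 5 Teff and Tex clusters together, none of the 10 genes was called higher, where 9.97% of all genes were, and none lower, where 4.88% were. H2-K1, H2-D1, B2m, Tap2, Tapbp, Psmb10 and Nlrc5 had lower levels in each of the 4 libraries, and the median log2 ratio of the 10 genes was -0.17, against 0.03 for all genes. Psmb9 was the only gene of the group higher in each library, by 0.18 on the log2 scale over all (0.15 to 0.22), and Tap1 was higher in 3 of 4, by 0.13 (0.08 to 0.17). Psmb5, Psmb6 and Psmb7 had higher levels in cycling cells in every library, with log2 ratios of 0.44, 0.49 and 0.48, short of the limit for a call. They were not alone in this, since the median log2 ratio was 0.38 for 18 subunits of the 19S cap, 1 of which was called higher, and 0.29 for 11 other 20S subunits. Against the single clusters, H2-K1 and B2m were below each of the 5. Tapbp (208 CPM) and Tap2 (223 CPM) were not below transitory Teff (201 and 211 CPM) or GzmA+ Tex (201 and 218 CPM). Psmb10 (269 CPM) was above TIGIT+ Teff (248 CPM). Nlrc5 could not be told from transitory Teff, nor H2-D1 from GzmA+ Tex, within counting error. The share of all genes lower in each library is not given here.

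Relative to transitory Teff, Tap1, Tap2, Tapbp and Nlrc5 were called higher, at 1.64-, 1.67-, 1.59- and 2.35-fold, in TIGIT+ Teff. That is 4 of 10 where 32.0% of all genes were called, and the median log2 ratio was 0.17 for the 10 genes and 0.33 for all genes, so the group as a whole did not stand above the other genes. H2-K1 had a higher level in each of the 4 libraries, with a log2 ratio of 0.21. Psmb8, Psmb9 and Psmb10 had lower levels in each of the 4 libraries, with summed log2 ratios of -0.19, -0.30 and -0.16, as did B2m, the partner of H2-K1, at -0.08. The constitutive subunits Psmb5, Psmb6 and Psmb7 were lower in each library too, at -0.48, -0.40 and -0.20. The median log2 ratio was -0.33 for 11 other 20S subunits and -0.08 for 18 subunits of the 19S cap, so the lower levels were not particular to the immunoproteasome. The sizes varied with the library: Tap1 was at 341, 228, 409 and 235 CPM in TIGIT+ Teff of libraries 1 to 4 and at 225, 181, 241 and 206 CPM in transitory Teff, so libraries 2 and 4, with 50 and 59 cells, showed the smaller differences. The clusters drew on the libraries unequally, with 436, 50, 271 and 59 cells in TIGIT+ Teff and 568, 473, 198 and 652 in transitory Teff. Summed folds can therefore exceed those within libraries. For Tap2 the summed log2 ratio was 0.74, above the 0.67, 0.51, 0.61 and 0.11 of libraries 1 to 4. Tapbp was at 0.67 summed and 0.61, 0.55, 0.67 and 0.36 by library. H2-D1 had a log2 ratio of 0.12 over all libraries, but it was positive in 2 of 4 libraries only, and it turned to -0.03 as the median of the single libraries and below 0 with the reduced total. With the reduced total only Tap2 and Nlrc5 were called, with 25.9% of all genes. Malat1, an RNA kept in the nucleus, was at 6564 CPM in TIGIT+ Teff and at most 2984 CPM elsewhere, and genes with a longer span had the higher ratios, with Spearman's rho 0.721 across the 10 genes and 0.585 across 7598 genes, which share libraries and are not independent. The part of nuclear or long RNA in these differences was not tested.

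**Figure D4:**
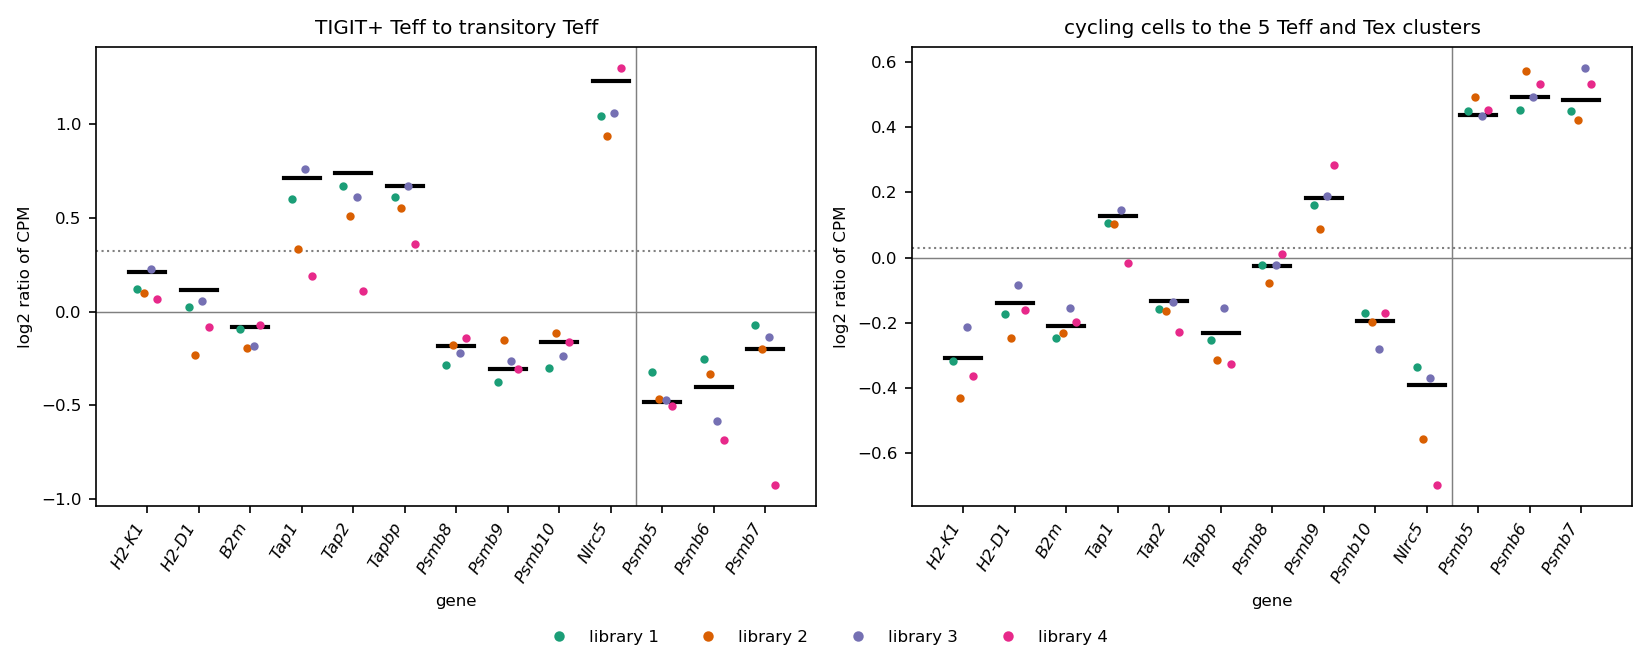
log2 ratio of CPM (y axis) for the 10 genes and, right of the vertical line, the constitutive subunits Psmb5, Psmb6 and Psmb7 (x axis), for TIGIT+ Teff to transitory Teff and for cycling cells to the 5 Teff and Tex clusters. Black lines are all libraries summed, points the single libraries, and the dotted line the median of all genes (0.33 and 0.03). Psmb8, Psmb9 and Psmb10 lie below 0 in each library in the first panel. Psmb5, Psmb6 and Psmb7 lie below 0 in each library in the first panel and above 0 in the second.

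Between GzmB+ Teff and transitory Teff, 9 of the 10 genes had positive ratios, 5 of them in each library, but only 2 passed the 1.5-fold limit. The median log2 ratio was 0.26 for the 10 genes, against -0.12 for all genes. Tapbp was 1.83-fold higher (1.73 to 1.93) and Psmb10 1.66-fold higher (1.58 to 1.74), the 2 called genes of the group, where 3.66% of all genes were called. Psmb8, Tap1 and Psmb9 had log2 ratios of 0.35, 0.38 and 0.19, positive in each library. H2-K1 and H2-D1 were at 1.03- and 0.978-fold, H2-D1 turning above 1 with the reduced total, where all 10 genes had positive ratios.

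The interferon response was then read cell by cell. Each cell was thinned to 2500 UMIs, and cells with at least 3 UMIs of the interferon list were compared with cells that had none, within the cluster. GzmB+ Teff could not be compared this way, because 707 of its 732 cells were rich and 1 was free of these UMIs, beside 11.3% to 25.1% rich cells in the other clusters. In those 7 clusters, 61 of the 70 ratios of gene and cluster were positive, 37 had a counting interval above 0 and none had an interval below 0. Over all genes of at least 10 CPM in the same clusters, 48.5% of the ratios were positive, 3.73% had an interval above 0 and 3.48% one below, and over those of at least 50 CPM, a minimum that all 10 genes pass, 5.90% had an interval above 0. The differences were small, with a median log2 ratio of 0.16, against -0.01 for all genes. H2-D1 had an interval above 0 in 7 of 7 clusters, H2-K1 and Psmb8 in 6, B2m in 5, and Tapbp and Nlrc5 in 1 and 0. Intervals are narrower for genes with more UMIs, so these counts do not rank the genes by size. The median log2 ratio over the clusters was 0.28 for Psmb8, 0.24 for Tapbp, 0.19 for H2-K1, 0.18 for H2-D1, 0.14 for B2m and 0.12 for Nlrc5. In transitory Teff, Psmb10 was at 329 CPM in 375 rich cells and at 246 CPM in 576 free cells, 1.34-fold, and in cycling cells at 315 and 209.9 CPM, positive in all 4 libraries in both. Psmb5, Psmb6 and Psmb7 had no interval above 0 in any cluster, with median log2 ratios over the clusters of -0.11, 0.06 and 0.19.

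Finer bins, chosen after these values were seen, showed the levels along the response. In GzmB+ Teff, 156 cells with 20 or more interferon UMIs were set against 299 cells with 3 to 9. All 10 genes were higher, 9 with an interval above 0 (all but Nlrc5) and 8 in each of the 4 libraries (all but Psmb9 and Nlrc5). Of all genes, 5.72% had an interval above 0 and 6.88% were higher in each library, or 8.35% and 9.05% of those of at least 50 CPM. Tapbp was at 296 CPM with 3 to 9 UMIs, 427 CPM with 10 to 19 and 554 CPM with 20 or more, 1.87-fold from the first to the last (log2 0.63 to 1.18). Tap1 was at 230.1, 348 and 423 CPM in the same bins, and Psmb8 at 1054, 1257 and 1633 CPM. Psmb5 moved the other way, at 231, 187 and 141 CPM, lower in each of the 4 libraries.

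Outside GzmB+ Teff, 62 cells had 10 to 19 interferon UMIs, and 8 of the 10 genes had an interval above 0 against the 3694 cells with none, the exceptions being Tap2 and Psmb10. Of all genes, 8.42% had an interval above 0, or 12.3% of those of at least 50 CPM. Of the constitutive subunits, Psmb6 was higher in them too, 1.46-fold with an interval above 0. The cells came from different clusters: TIGIT+ Teff and cycling cells made up 21.0% and 30.6% of the 62 cells and 6.36% and 18.6% of the 3694, while Tn made up 0% and 13.7%. Weighting the cells with none to the clusters of the 62, a choice made after these values were seen, left all 10 genes higher but took Tap1 from 2.03- to 1.56-fold, Nlrc5 from 1.76- to 1.29-fold, Tap2 from 1.33- to 1.08-fold and Tapbp from 2.24- to 1.96-fold. Against these 62 cells of mixed clusters, Tap1 and Tapbp inside GzmB+ Teff could not be told apart at the same 10 to 19 UMIs. Tap1 was at 348 CPM inside and 406 CPM outside, and Tapbp at 427 and 471 CPM. With 3 to 9 UMIs, in 299 cells inside and 1772 outside, Tapbp was higher inside, at 296 and 246 CPM. That was a log2 difference of 0.26 (0.05 to 0.47), while Tap1 was at 230.1 and 253 CPM with an interval that held equality. Psmb10 was higher inside in both bins. It was at 475 CPM inside and 335 CPM outside with 10 to 19 UMIs, a log2 difference of 0.50 (0.07 to 0.95). With 3 to 9 UMIs it was at 417 and 322 CPM, 0.37 (0.19 to 0.55). H2-K1 and H2-D1 were lower inside at 10 to 19 UMIs, by log2 ratios of -0.18 and -0.19.

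**Figure D5:**
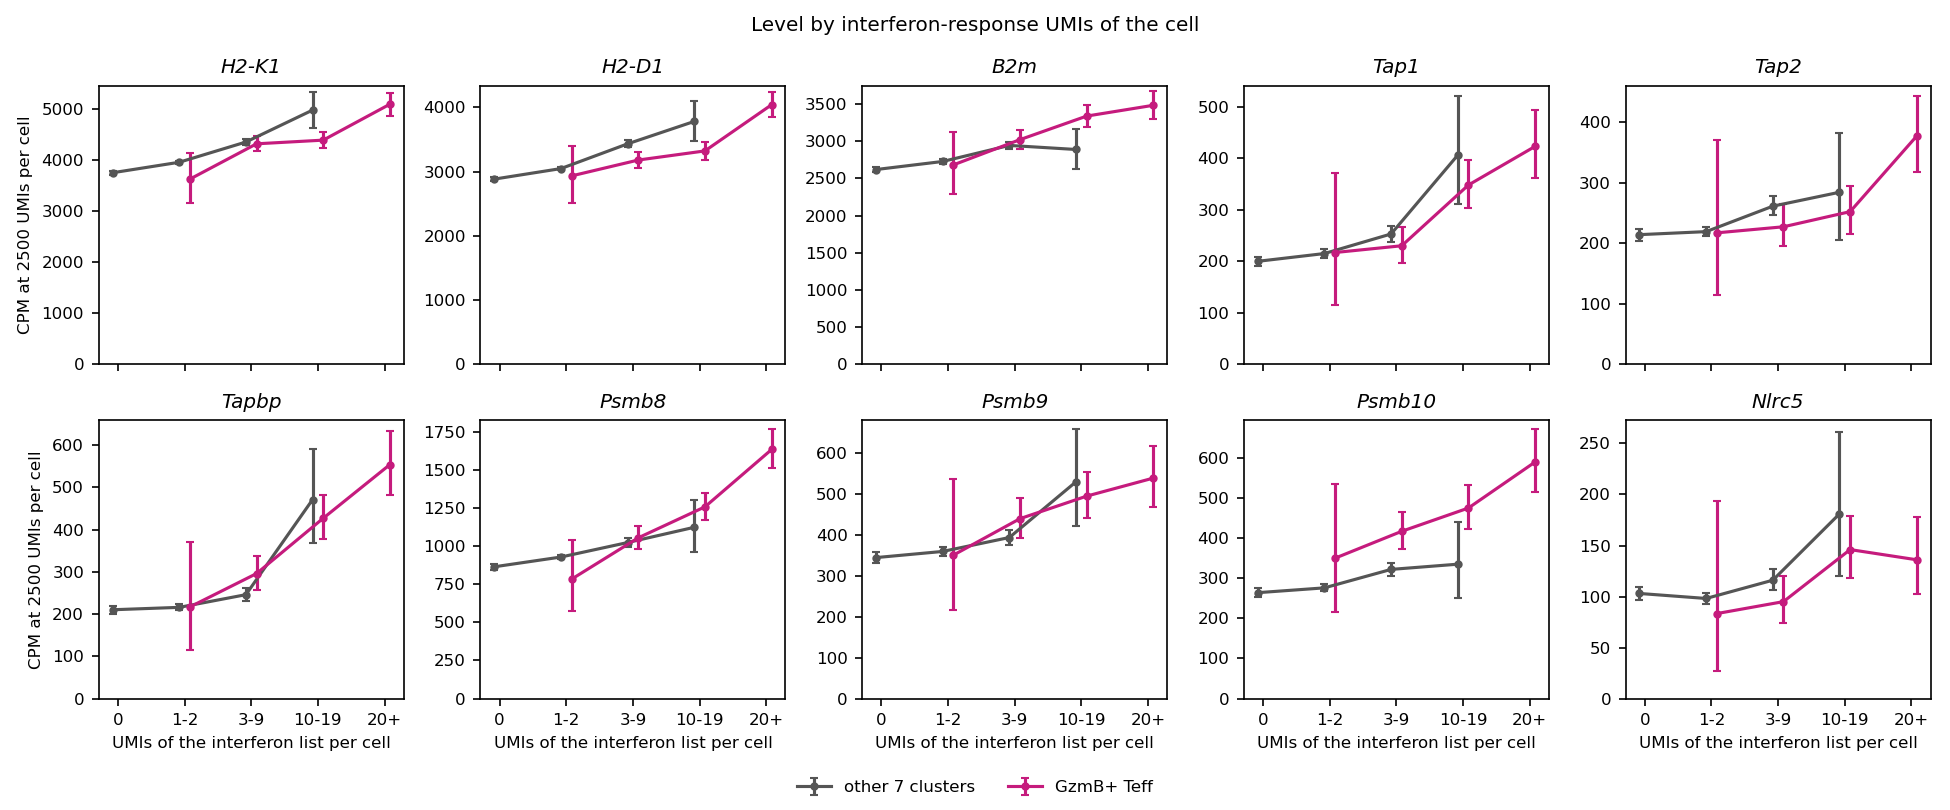
CPM of the 10 genes at 2500 UMIs per cell (y axis, from 0) by the UMIs of the interferon list in the same cell (x axis), for GzmB+ Teff and for the other 7 clusters. Bars are 95% Poisson intervals and bins under 20 cells are not drawn; Tapbp reaches 554 CPM in the last bin of GzmB+ Teff, and Psmb10 is higher inside than outside GzmB+ Teff at 3 to 9 and at 10 to 19 UMIs.

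Levels also differed with clone size. In transitory Teff, 778 cells belonged to clones of 10 or more cells of the same library and 368 carried a TCR seen once. All 10 genes had higher levels in the clones, with a median log2 ratio of 0.17, against -0.01 for all genes. In 8 of them, all but Psmb10 and Nlrc5, the interval lay above 0, as it did for 10.7% of all genes and 17.4% of those of at least 50 CPM. Tap1 was at 238 CPM in clones and 190.2 CPM in single cells, and H2-K1 at 4317 and 3839 CPM, higher in 4 of 4 libraries for both. In cycling cells the median log2 ratio was 0.19, against 0.07 for all genes, and 7 genes had intervals above 0, as did 20.1% of all genes and 29.6% of those of at least 50 CPM. Of these 7 genes, Tapbp was higher in 2 of 4 libraries and H2-K1 and B2m in 3. Psmb10 had an interval below 0, at 258 CPM in clones and 292 CPM in single cells, lower in each of the 4 libraries, while Psmb5 also had an interval above 0. In GzmB+ Teff, with 81 cells in such clones and a median log2 ratio of 0.40 beside 0.17 for all genes, 8 genes had intervals above 0, where 17.2% of all genes and 27.6% of those of at least 50 CPM did. There Tap1 was at 407 and 237 CPM and H2-K1 at 5271 and 3915 CPM, while Psmb10 was at 445 and 478 CPM with an interval that held equality. Of the 8 genes, Tapbp and Psmb8 were higher in 3 of 4 libraries. Libraries also differed in the other clusters compared. In TIGIT+ Teff the median log2 ratio was 0.16, beside 0.07 for all genes, with 5 and 12 clone cells in libraries 2 and 4. H2-K1, H2-D1, B2m, Tap1, Tapbp and Psmb8 were higher in 2 of 4 libraries, and only Psmb9 in each. In GzmA+ Tex the median was 0.18, beside 0.11, and H2-D1, B2m, Tap2, Psmb8 and Psmb9 were higher in each library. Tapbp and Psmb10 were higher in 1 of 4 and Nlrc5 in 0. The share of all genes higher in each library is not given for TIGIT+ Teff and GzmA+ Tex.

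The libraries also differed within clusters. The median ratio of the highest to the lowest library over the 10 genes was 1.10-fold in Tn, 1.13-fold in GzmB+ Teff, 1.33-fold in TIGIT+ Teff and 1.38-fold in cycling cells. Library 3 held the highest value for 9 of the 10 genes in transitory Teff and for 8 in TIGIT+ Teff and in cycling cells, where Nlrc5 was at 96.6, 64.5, 128 and 59.3 CPM in libraries 1 to 4. Malat1 was highest in library 3 in the same clusters, at 3812, 8027 and 3746 CPM, and the ratio of immunoproteasome to constitutive subunits was highest in library 3 in 7 of the 8 clusters. In Tn, library 3 held the lowest value for 4 of the 10 genes. With 1 pool of mice in each library, these spreads cannot be told apart from differences between pools, and no treatment is read from them.

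GzmA+ Tex carried RNA of other cells. The 8 macrophage markers summed to 1108 CPM there, 725 to 1390.5 CPM by library, beside 5.05 to 58.9 CPM in the other clusters, the 4 class II markers to 894 CPM, and 513 of its 571 cells held at least 3 UMIs of macrophage, class II or plasma cell markers. In the 58 cells with under 3 such UMIs, H2-K1 was at 3943 CPM and Psmb10 at 363 CPM, beside 3675 and 305 CPM in the 513 cells. No gene of the group had a higher level in the 513 cells beyond counting error. These marker UMIs were counted without thinning, so the split also depends on the depth of a cell.

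The profiles of the 10 genes were compared across the 32 points of cluster and library. These correlations are of log2(CPM + 10), and points of a library or cluster share cells and depth. Pearson's r was 0.921 between Tap1 and Tap2, 0.874 between Tap2 and Nlrc5 and 0.899 between H2-K1 and H2-D1, and 0.907 between Psmb8 and Psmb10 and 0.826 between Psmb8 and Psmb9, but 0.258 between Psmb10 and Nlrc5. The genes did not part into separate sets, as r was 0.671 between Psmb9 and Tap1 and 0.630 between Psmb9 and Psmb10, 0.731 between B2m and Psmb8 and 0.737 between B2m and H2-D1, and 0.629 between Tapbp and Psmb10. With Malat1, r was highest for Nlrc5 (0.874), Tap2 (0.771) and H2-K1 (0.766), 0.203 for B2m, and near 0 for Psmb8 (0.003), Psmb9 (-0.023) and Psmb10 (0.014). Among the 10 genes outside the group most like its mean profile were H2-T23 (r 0.952), Cd86 (0.910), H2-M3 (0.900), Irf1 (0.896), H2-T22 (0.885), H2-Q7 (0.878), Ogfr (0.877), Trim21 (0.874) and Tmbim6 (0.874). Outside the 10 genes, the gene most like each single one was Tapbpl for H2-K1 (0.927), H2-Q7 for H2-D1 (0.914), Selenow for B2m (0.880), Tmbim6 for Tap1 (0.959), Lpin2 for Tap2 (0.932), Gbp7 for Tapbp (0.959), H2-T22 for Psmb8 (0.880), Tspo for Psmb9 (0.885), Oas1a for Psmb10 (0.891) and Itgal for Nlrc5 (0.942).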

How the data were processed

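CD8+ T cells sorted from pooled BM gave 4 single-cell 5' libraries, 1 per treatment. The authors ran Cell Ranger (version 7.00 and build mm10 per the submitters' processing notes), evened out reads across libraries, kept cells by UMIs, mitochondrial share and expression of T cell genes, clustered them with Monocle3 and named the clusters. The deposited count table holds raw UMI counts of 17561 genes in 11754 cells. Per the file headers, other tables give each cell's library number, cluster and mitochondrial share as a fraction, and its TCR chains. Of the Ensembl IDs, 17534 were matched to symbols. Library numbers were not mapped to treatments, because no label ties them. No doublet caller was run here, and cells with 1 TRB chain served as an alternative.

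UMIs were summed by cluster and library in Python 3.11.15 (numpy 2.4.6, scipy 1.17.1, pandas 2.3.3; figures with matplotlib 3.10.9) and expressed as CPM with exact Poisson intervals. Ratios have exact conditional binomial intervals and that of the subunit ratio is a normal one on the log scale. A call needed 1.5-fold over all libraries and the same sign in each, among 7604 genes with 10 CPM or more. The calls and intervals were run on simulated Poisson counts drawn from a profile shared by all libraries. This checks the arithmetic and cannot cover spread between libraries. Cells were thinned to 2500 UMIs at random with a fixed seed for shares and interferon strata, and strata under 20 cells were left out, a minimum set after the data were seen. Clones were counted within a library from 7961 cells with a TCR. The named genes were all 10 members, in each list the 3 highest and the 3 lowest ratios of GzmB+ Teff to Tn, the 10 genes most like the mean member profile (1 is not reported here) and the gene most like each member; examples named for a comparison of members were chosen after their values were seen. The members and lists were chosen with earlier results of these data known. Intervals cover counting error only, since cells are not replicates.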

Additional observations from a re-analysis of the deposited data

How the results depend on the processing

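Each of the main values was recomputed with other weightings of cells and libraries, thinned cells, Leiden cluster numbers and a reduced total. Further runs left out cells with 3 or more UMIs of macrophage, class II and plasma cell markers, kept cells with 1 TRB chain, or left out each library. None of the main values changed its direction. The count of genes above Tn in GzmB+ Teff was 8, where 10.7% of all genes were called, and 4 with a 2-fold limit (5.69%), 8 to 9 with a library left out (10.9% to 12.5%), 6 with Leiden numbers (10.0%) and 6 with the reduced total (7.84%). The median log2 ratio of GzmB+ Teff to Tn, 0.89, became 0.74 with Leiden numbers and 0.69 with the total that leaves out mitochondrial, ribosomal protein, TCR and immunoglobulin genes. That of cycling cells to the 5 Teff and Tex clusters, -0.17, became -0.27 with the reduced total and -0.24 with cells of 1 TRB chain. The subunit ratio, 0.62, became 0.72 with the mean of single-cell CPM, 0.44 with Leiden numbers and 0.72 with cells of 1 TRB chain. The interferon comparison, 0.16, was 0.06 when cells with 1 or more UMIs counted as rich. The causes of these shifts were not tested. H2-D1 between TIGIT+ Teff and transitory Teff reversed, to -0.0267 as the median of the single libraries and to -0.0250 with the reduced total. No paired analysis was possible because no treatment could be compared with another, each having 1 library and no library number being tied to it. Clusters of the same library are paired by it, and the medians of the 4 within-library values were 0.89 for GzmB+ Teff to Tn and -0.18 for cycling cells. Depth limits Nlrc5 most, with a UMI in 11.3% of Tn at 2500 UMIs per cell.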
